A study of Homo sapiens with 9 samples.

Results

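The genes described here are 9 transcriptional targets of the tumour suppressor p53 (MDM2, GDF15, BTG2, SESN1, ZMAT3, FAS, RRM2B, GADD45A and PERP), chosen by name and measured by RNA sequencing in DU145 prostate cancer cells. All 9 were found in the deposited table of 16772 genes. DU145 is an established androgen-independent cell line. The labels give the genotype of all libraries as WT. The study has 3 groups of 3 libraries each. Cells of the control group received the solvent DMSO, a second group received H93, a compound known here only by its code name, at a labelled dose of 20 µM, and the last group received SAHA (vorinostat), a histone deacetylase inhibitor, at a labelled 500 nM. All were harvested on day 6, with the medium renewed daily. The doses of H93 and SAHA differ, so values under the 2 agents are set side by side and are not a comparison at matched dose.

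p53 is a transcription factor that is stabilised by DNA damage and other stress and binds a palindromic motif near its target genes. Its targets arrest the cell cycle, aid DNA repair, adjust metabolism or start apoptosis, and MDM2 closes a feedback loop by marking p53 for degradation. Many of these genes also answer to other transcription factors, and some of them are known to respond to histone deacetylase inhibitors in cells without functional p53.

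The deposited values are FPKM (fragments scaled by transcript length and by the number of mapped fragments), so levels can be compared between genes per length. They sum to between 348656 and 355741 per library, the numbers of reads are unknown, and low genes gave relative depths between 0.875 and 1. Correlations of log2(FPKM + 1) between libraries of a group lay between 0.9986 and 0.9989. Of 5 epithelial marker genes 5 were expressed at 1 FPKM or more in at least 3 libraries, with sums of 1583 to 1623 in DMSO, 1827 to 1864 in H93 and 1751 to 1827 in SAHA. The epithelial markers did not move alike. KRT19 rose from a mean of 169.4 FPKM to 420.4 with H93 and 326.5 with SAHA, while EPCAM fell from 67.1 to 30.5 and 37.8 and CDH1 from 13.3 to 4.34 and 5.09. Among markers of haematopoietic cells 0 of 2 reached that level, with sums of at most 1.13. The count was 0 of 3 for endothelial cells and 1 of 4 for fibroblasts, with sums of 2.30 to 3.16 FPKM in DMSO, 3.48 to 4.10 in H93 and 3.41 to 5.42 in SAHA. The part of these levels in the results below was not tested.

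The DNA around the transcription starts is shown first, because what these genes share by name is a transcription factor that reads DNA. Windows from 250 bases before to 50 bases after each RefSeq start (GRCh38.p14) were at hand for 7 of the 9 genes, 15 windows in all. RRM2B and GADD45A were not searched. Each window was searched on both strands for the p53 consensus, a palindrome of 20 bases made of a pair of 10-base motifs with no spacer, in which the conserved C and G of each motif had to be present. The best match in any window of each gene is printed here. Capitals mark letters that fit the consensus and lower case marks mismatches.
MDM2: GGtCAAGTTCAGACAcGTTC
FAS: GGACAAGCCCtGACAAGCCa
GDF15: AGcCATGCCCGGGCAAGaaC
SESN1: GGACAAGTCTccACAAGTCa
ZMAT3: GGGCcTGCTCcGcCAAGCaC
PERP: GGGCAgGTCgGGGCggGCgC
BTG2: AGtCcgGgCaGAGCccGagC

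The MDM2 match (chr12:68808923-68808942) had 2 mismatches and began at position -94 from an internal start of the gene, the one known for its response to p53. The FAS match (chr10:88991309-88991328) also had 2 mismatches and began at position -122 from an internal start. A match at least this good was found in 0.285% of 35114 windows of the same length. GDF15 (chr19:18386186-18386205) and SESN1 (chr6:109009018-109009037) each had 3 mismatches, a quality reached in 1.12% of windows. ZMAT3 (chr3:179071873-179071892) had 4 mismatches, reached in 4.05% of windows. PERP (chr6:138107525-138107544) had 5, reached in 11.5%, and BTG2 (chr1:203305510-203305529) had 9, reached in 65.2%. These shares count single windows, while each printed match is the best over all windows of its gene. For genes with several windows they therefore understate how often a gene reaches such a match. Windows at upstream starts of MDM2 and FAS had 8 mismatches at best, reached in 56.2% of windows. A match is a description of the letters and not a binding site, and sites outside these windows were not searched.

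The whole windows of a gene with a close match and of a gene with a poor one are given for contrast, with the 20-base match in capitals. They are MDM2 on the plus strand (chr12:68808767-68809066) and PERP on the minus strand (chr6:138107370-138107669), both 5′ to 3′.
MDM2: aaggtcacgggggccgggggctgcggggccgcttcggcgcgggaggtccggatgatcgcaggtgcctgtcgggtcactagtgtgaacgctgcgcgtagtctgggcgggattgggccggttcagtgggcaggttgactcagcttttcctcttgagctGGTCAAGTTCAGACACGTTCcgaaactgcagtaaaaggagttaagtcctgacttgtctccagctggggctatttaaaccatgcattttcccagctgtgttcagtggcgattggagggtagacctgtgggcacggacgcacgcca
PERP: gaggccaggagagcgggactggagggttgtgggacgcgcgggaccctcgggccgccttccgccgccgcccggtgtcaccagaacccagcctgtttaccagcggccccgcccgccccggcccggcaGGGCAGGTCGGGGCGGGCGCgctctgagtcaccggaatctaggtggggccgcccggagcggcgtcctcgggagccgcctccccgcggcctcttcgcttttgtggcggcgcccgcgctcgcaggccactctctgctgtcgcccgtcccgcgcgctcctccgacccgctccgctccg

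The MDM2 window was 59.7% G and C and the PERP window 77.0%. Over the members' 15 windows the median was 63.0%, beside 65.3% over the windows of all tested genes.

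After H93, 4 of the 7 members that could be tested were higher than in DMSO (GADD45A, PERP, ZMAT3 and BTG2), 0 were lower, and MDM2, RRM2B and FAS did not pass the test. The test was limma on log2(FPKM + 1) over all 9 libraries, with a call at a Benjamini-Hochberg adjusted p below 0.05 over 11525 genes. At this call 34.9% of all tested genes were higher after H93 and 35% were lower, 69.8% in either direction, so the members' count has to be read against a high background. The members' median difference was 0.35 on the log2 scale, beside 0.00 over all tested genes. At an unadjusted limma p below 0.05 the members' count was also 4 higher and 0 lower. After SAHA, measured against the same DMSO libraries, the count was again 4 higher and 0 lower, with 27.4% of all tested genes higher, 31.4% lower and 58.8% called in either direction. At an unadjusted limma p below 0.05 it was 4 and 0 as well. The members' median was then 0.21, beside -0.01 over all genes. The remaining 2 members, SESN1 and GDF15, were below the filter of 1 FPKM in at least 3 libraries and were not tested, so the counts do not describe all 9. A gene counted as changed 2-fold when it was called and its log2 difference was at least 1. That held for 2 members after H93 (GADD45A and PERP), where 1.47% of tested genes passed in the upward direction, and for 1 after SAHA (GADD45A), where 0.746% did.

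**Figure D1:**
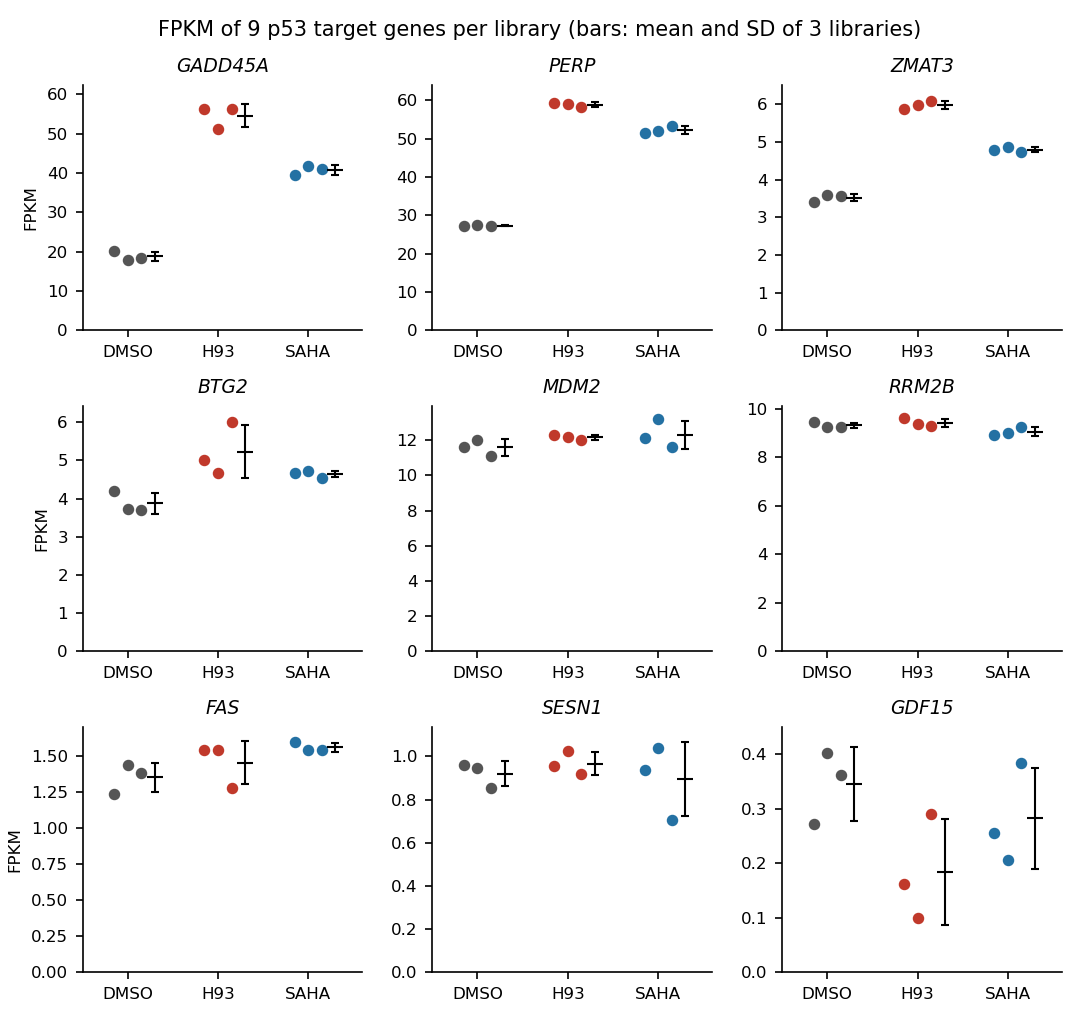
FPKM (vertical axes, each starting at 0) of the 9 genes in each of the 9 libraries, with 1 point per library and bars for the mean and SD of the 3 libraries of a group. GADD45A, PERP and ZMAT3 step up from DMSO to SAHA to H93 with no overlap, MDM2 and RRM2B stay near 12 and 9 FPKM, and SESN1 and GDF15 lie near or below 1 FPKM.

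GADD45A (chr1:67685061-67688338 in GRCh38, protein-coding), whose product binds PCNA and cell cycle kinases and takes part in growth arrest and repair, had the largest difference of the members. It measured 20.2, 17.9 and 18.5 FPKM in the DMSO libraries, 56.3, 51.3 and 56.3 with H93, and 39.5, 41.9 and 41.0 with SAHA. The lowest treated library of either agent was thus above the highest control, and the H93 and SAHA libraries did not overlap each other. The means were 18.8 ± 1.20 (SD, n = 3), 54.6 ± 2.93 and 40.8 ± 1.21, ratios to DMSO of 2.90 and 2.17. On the log2(FPKM + 1) scale GADD45A rose by 1.49 after H93 (SE 0.0470, 95% interval 1.39 to 1.59, limma adjusted p 8.3e-11) and by 1.08 after SAHA (95% interval 0.97 to 1.18, limma adjusted p 2.6e-09). Its difference ranked 47 among the tested genes after H93 and 67 after SAHA. Because these are bulk RNA libraries, a change in every cell and a change in the share of cells that express a gene cannot be told apart, here or in the results that follow.

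PERP (chr6:138088505-138107511), a membrane protein of desmosomes that is also linked to p53-driven apoptosis, was the member with the highest mean level in all 3 groups. Its values were 27.1, 27.5 and 27.3 FPKM with DMSO, 59.3, 59.1 and 58.2 with H93, and 51.4, 52.1 and 53.3 with SAHA. No library of one group reached the range of another. The means were 27.3 ± 0.163 (SD, n = 3), 58.9 ± 0.612 and 52.3 ± 0.977. The difference was 1.08 after H93 (SE 0.0242, 95% interval 1.03 to 1.13, limma adjusted p 3.86e-12) and 0.91 after SAHA (95% interval 0.86 to 0.97, limma adjusted p 3.52e-11). Without a pseudocount the ratio of mean FPKM to DMSO was 2.16 for PERP after H93 and 2.17 for GADD45A after SAHA. Both 2-fold calls were lost with a pseudocount of 5 in place of 1. These differences were then 0.98 and 0.94, and that of GADD45A after H93 was 1.32.

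ZMAT3 (chr3:179017223-179072279), a zinc finger protein that binds RNA and is among the p53 targets tied to tumour suppression, was expressed at a lower level. It measured 3.41, 3.59 and 3.56 FPKM with DMSO, 5.86, 5.96 and 6.08 with H93, and 4.78, 4.86 and 4.73 with SAHA, again without overlap. ZMAT3 rose by 0.62 after H93 (95% interval 0.53 to 0.71, limma adjusted p 4.23e-08) and by 0.36 after SAHA (95% interval 0.27 to 0.45, limma adjusted p 1.14e-05), ratios of means of 1.70 and 1.36.

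BTG2 (chr1:203305491-203309602), an antiproliferative protein that recruits the deadenylation machinery to mRNA, varied more between the H93 libraries (CV 13.4%) than between the DMSO (7.34%) or SAHA libraries (1.89%). The DMSO libraries held 4.20, 3.72 and 3.69 FPKM, the H93 libraries 5.01, 4.66 and 6.01, and the SAHA libraries 4.67, 4.71 and 4.54. Both treated groups lay above DMSO, and H93 and SAHA overlapped. After H93 the difference was 0.35 (95% interval 0.19 to 0.51, limma adjusted p 0.000813). After SAHA it was 0.21 (95% interval 0.06 to 0.37, limma adjusted p 0.022). The SAHA call was lost without DMSO replicate 2 (adjusted p 0.0688), DMSO replicate 3 (0.0741), SAHA replicate 1 (0.0513) or SAHA replicate 2 (0.057), and when genes below the FPKM filter were also tested (0.0556).

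MDM2 (chr12:68808176-68850686), the ubiquitin ligase that targets p53 and is the classical readout of p53 activity, measured 11.6, 12.0 and 11.1 FPKM with DMSO. It measured 12.3, 12.2 and 12.0 with H93, and 12.1, 13.2 and 11.6 with SAHA. The ranges of the 3 groups overlapped. The difference was 0.07 after H93 (95% interval -0.03 to 0.17, limma adjusted p 0.212) and 0.08 after SAHA (95% interval -0.02 to 0.18, limma adjusted p 0.152), so the upper bound of either interval lies far below the GADD45A difference. MDM2 shares its locus with CPM on the opposite strand, which measured 17.1 to 18.8 FPKM, and whether the counting used strand is not given in the sources used here, so reads of the overlap cannot be told apart.

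RRM2B (chr8:102204502-102239118), the p53-induced small subunit of ribonucleotide reductase that supplies nucleotides for repair, measured 9.45, 9.26 and 9.26 FPKM with DMSO, 9.62, 9.38 and 9.30 with H93, and 8.91, 9.02 and 9.27 with SAHA. Both treated groups overlapped DMSO, and the H93 libraries lay just above the SAHA libraries. Its difference was 0.02 after H93 (95% interval -0.06 to 0.09, limma adjusted p 0.701) and -0.04 after SAHA (95% interval -0.11 to 0.04, limma adjusted p 0.382).

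FAS (chr10:88990582-89015785), the death receptor that starts the extrinsic pathway of apoptosis, was expressed at a low level. It measured 1.24, 1.43 and 1.38 FPKM with DMSO, 1.54, 1.54 and 1.28 with H93, and 1.59, 1.54 and 1.54 with SAHA. The SAHA libraries lay above all DMSO libraries, and the H93 libraries overlapped both. The difference was 0.06 after H93 (95% interval -0.07 to 0.19, limma adjusted p 0.399) and 0.12 after SAHA (95% interval -0.01 to 0.26, limma adjusted p 0.106), and neither passed. A pseudocount of 1 understates the differences of genes at this level. The opposite-strand gene ACTA2 measured 0.471 to 1.21 FPKM and cannot be told apart from FAS in the overlap.

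SESN1 (chr6:108986437-109094819), a sestrin that restrains mTORC1 signalling under stress, measured 0.961, 0.947 and 0.852 FPKM with DMSO, 0.957, 1.02 and 0.918 with H93, and 0.937, 1.04 and 0.705 with SAHA. The groups overlapped. When every gene of the table was tested without the filter, its difference was 0.03 after H93 (limma adjusted p 0.694) and -0.02 after SAHA (limma adjusted p 0.817). GDF15 (chr19:18374731-18389176), a secreted stress cytokine, was the lowest member, with 0.272, 0.403 and 0.363 FPKM in DMSO, 0.162, 0.0991 and 0.290 in H93, and 0.256, 0.207 and 0.385 in SAHA. The H93 range reached into the DMSO range. Without the filter GDF15 fell by 0.19 on the log2 scale after H93 (95% interval -0.35 to -0.03, limma adjusted p 0.0489) and its SAHA difference was -0.07 (limma adjusted p 0.47). It was the only member with a lower call under any of the settings tried.

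Between the agents, at their different doses, 3 of the 7 tested members were higher with H93 than with SAHA and 0 were lower, where 17.6% of all tested genes were higher, 13.9% lower and 31.5% called in either direction. At an unadjusted limma p below 0.05 the counts were again 3 and 0. The 3 genes were GADD45A (0.41, 95% interval 0.31 to 0.51, limma adjusted p 0.000109), ZMAT3 (0.27, 0.18 to 0.36, limma adjusted p 0.00065) and PERP (0.17, 0.12 to 0.22, limma adjusted p 0.000454). For BTG2 the difference was 0.14 (95% interval -0.02 to 0.29, limma adjusted p 0.168). The intervals for MDM2 (-0.11 to 0.09), RRM2B (-0.02 to 0.13) and FAS (-0.20 to 0.07) also spanned 0. The members' median difference was 0.14, beside 0.02 over all genes.

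**Figure D2:**
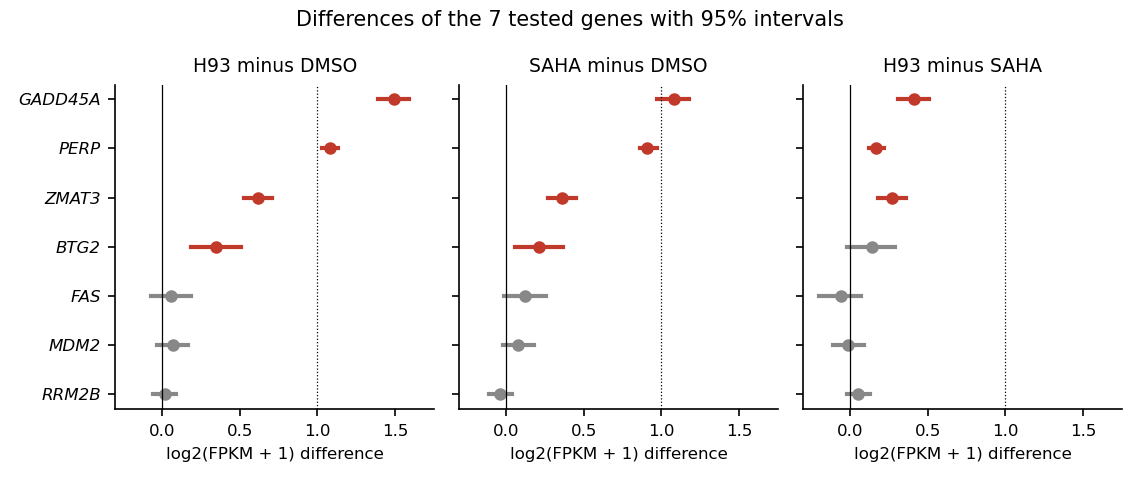
Differences in log2(FPKM + 1) of the 7 tested genes for H93 minus DMSO, SAHA minus DMSO and H93 minus SAHA, with 95% intervals as horizontal bars, red for called genes and grey for the others, a solid line at 0 and a dotted line at 1 (2-fold). GADD45A at 1.49 and 1.08 and PERP at 1.08 and 0.91 stand apart from MDM2, RRM2B and FAS, whose intervals span 0 in all 3 panels.

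The matches printed above are set beside the differences of the members with a searched window. GADD45A, the member with the largest difference, and RRM2B had no window searched. MDM2 and FAS, with 2 mismatches, did not pass the test, and GDF15 and SESN1, with 3, were not tested. ZMAT3, PERP and BTG2, with 4, 5 and 9, rose after both agents. Over the whole table, 143 tested genes had a window with at most 3 mismatches, and 37.1% of them were higher and 35.7% lower after H93, beside 34.7% and 35.2% of the 9390 tested genes with a window. After SAHA the shares were 28.7% and 30.8%, beside 27.2% and 31.6%. These 7 genes are too few to relate matches to differences, and no such relation was tested.

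TP63, a relative of p53 that binds the same motif and is a known regulator of PERP in epithelia, was at most 0.0241 FPKM in every library. TP73, the other relative, measured 0.140, 0.0622 and 0.112 FPKM with DMSO, 0.00997, 0.0306 and 0.0199 with H93, and 0.0296, 0 and 0.0297 with SAHA. Neither was tested at these levels.

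MDM4, the relative of MDM2 that blocks the activation domain of p53, fell from a mean of 2.69 FPKM to 2.02 after H93 (-0.29, limma adjusted p 0.000367). After SAHA its mean was 2.29 (-0.17, limma adjusted p 0.0165), a call lost without DMSO replicate 2 (0.056) or SAHA replicate 1 (0.068). Of 19 tested genes of the p53 family and its regulators 4 were higher (21.1%) and 10 lower (52.6%) after H93, with a median of -0.14. Over all tested genes these shares were 34.9% and 35%. After SAHA the counts were also 4 and 10, with a median of -0.15, beside 27.4% and 31.4% of all tested genes. The checkpoint kinase gene CHEK2 fell (from 14.2 to 9.22 FPKM with H93 and to 10.5 with SAHA), and so did SIRT1, a deacetylase that acts on p53 (from 13.8 to 9.25 and 9.70). PPP1R13L, which encodes the p53 inhibitor iASPP, rose from 7.48 to 10.3 and 9.62 FPKM.

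**Figure D3:**
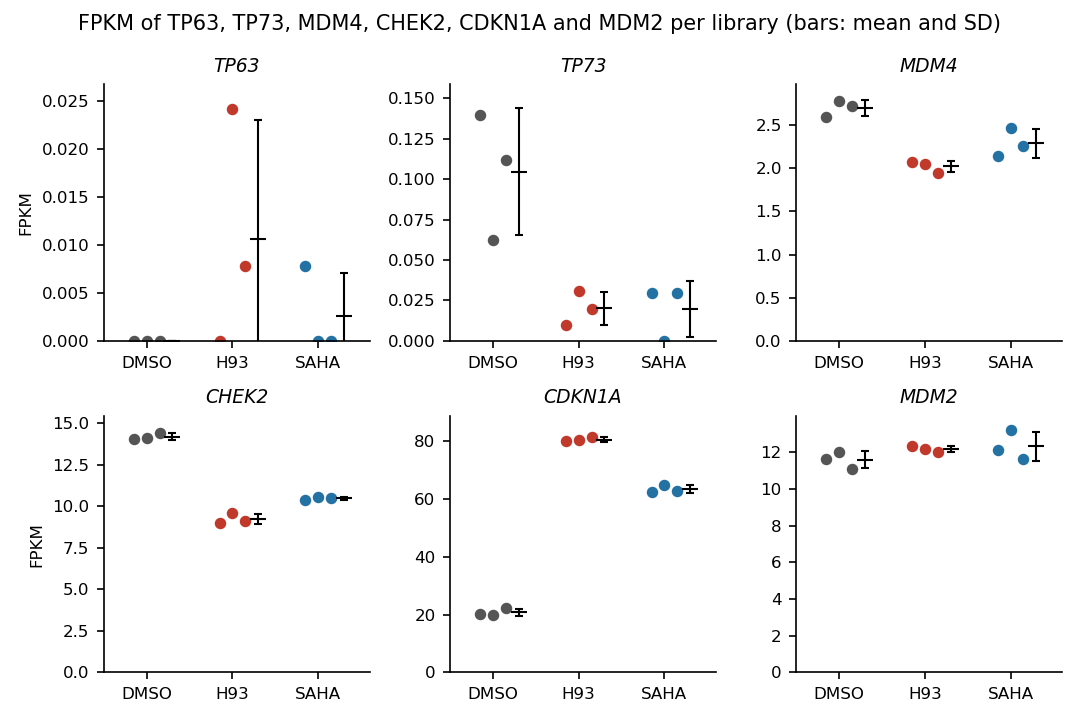
FPKM (vertical axes, each starting at 0) of TP63, TP73, MDM4, CHEK2, CDKN1A and MDM2 per library, with bars for the mean and SD of 3 libraries. MDM4 and CHEK2 lie lower in the treated libraries than in DMSO, CDKN1A lies higher and MDM2 overlaps, and the axes of TP63 and TP73 end far below 1 FPKM.

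Other p53 targets were read from a list of 38 genes, of which 33 could be tested. After H93 16 were higher (48.5%) and 7 lower (21.2%), with a median of 0.11, beside 34.9% and 35% of all tested genes. After SAHA 13 were higher (39.4%) and 8 lower (24.2%), with a median of 0.08, beside 27.4% and 31.4%. With any 1 library left out the higher count after SAHA was 9 to 12. The lower count after SAHA was 5 without DMSO replicate 2 or SAHA replicate 1. CDKN1A (chr6:36676460-36687339), the cyclin-dependent kinase inhibitor p21 and the best known p53 target, had the largest difference of the list. It went from 20.8 ± 1.33 FPKM (SD, n = 3) to 80.6 ± 0.734 with H93 and 63.4 ± 1.35 with SAHA, a rise of 1.91 (limma adjusted p 1.39e-12) and 1.57 (limma adjusted p 1.8e-11). CYFIP2, an actin regulator, rose from 1.82 to 5.60 and 4.58 FPKM. PMAIP1, the pro-apoptotic protein NOXA, rose from 13.9 to 33.5 and 28.7, and PGF, a growth factor of the VEGF family, from 6.19 to 10.99 and 9.12. Among the genes called lower after both agents, PIDD1 fell from 3.47 to 1.945 and 1.92 FPKM. NINJ1 fell from 31.8 to 22.3 and 21.8 FPKM, and BAX from 28.15 to 23.54 and 23.65. Between the agents 13 genes of this list were higher with H93 (39.4%) and 1 was lower (3.03%), with a median of 0.08. Over all tested genes these shares were 17.6% and 13.9%. The higher count between the agents was 9 to 14 with 1 library left out.

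The deposited table also carries KEGG annotation, and 72 of its genes, 7 of the members among them, are marked as p53 signaling pathway. Without the members 58 of the remaining 65 could be tested, and 23 were higher and 21 lower after H93, with a median of 0.02. After SAHA 18 were higher and 19 lower, with a median of -0.05. This list was taken up after the table was seen, and its shares of 39.7% and 36.2% after H93 and 31% and 32.8% after SAHA lie near those of all tested genes.

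**Figure D4:**
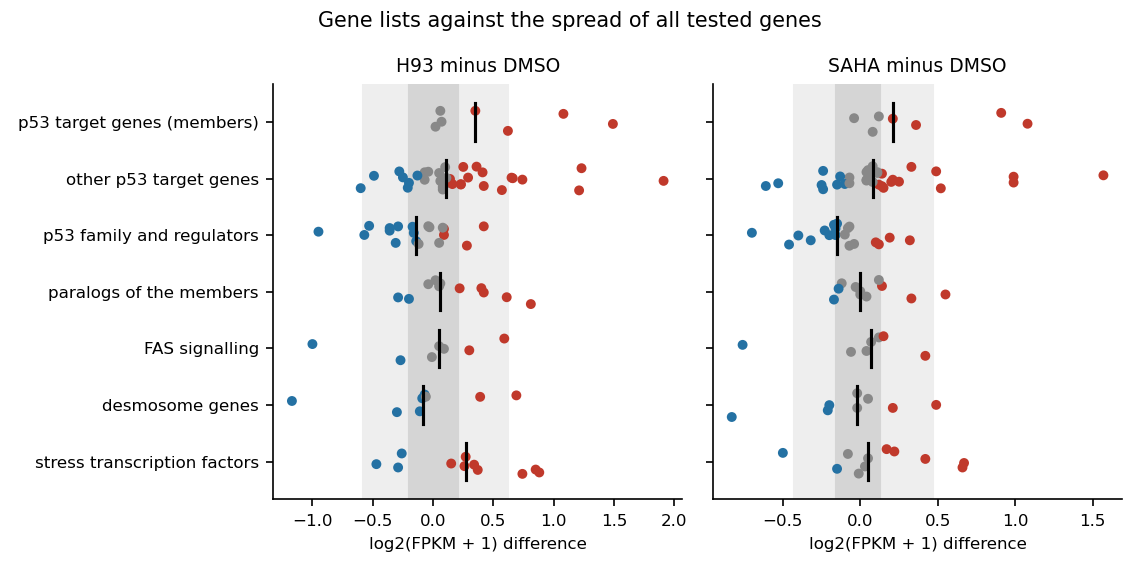
Differences in log2(FPKM + 1) for H93 minus DMSO and SAHA minus DMSO by gene list, with 1 point per tested gene (red higher, blue lower, grey not called), a black bar at each list's median, and shading for the range from percentile 25 to 75 (dark) and from 5 to 95 (light) of all 11525 tested genes. Within the members' list GADD45A and PERP lie outside the light band in both panels. All tested members lie above 0 after H93, and RRM2B lies just below it after SAHA (-0.04). The other lists hold points on both sides of 0.

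Relatives of the members in the same gene families were compared with them 1 by 1. Among the GADD45 genes, GADD45B fell from 48.6 to 42.2 FPKM after H93 (-0.20, limma adjusted p 4.6e-05) and to 44.0 after SAHA (-0.14, limma adjusted p 0.001), in the direction opposite to GADD45A. GADD45G rose from 1.25 to 1.64 FPKM after H93 (0.22, limma adjusted p 0.0143), a call lost without H93 replicate 1 (0.0658), and was at 1.22 with SAHA. Of the relatives of BTG2, BTG1 and BTG3 rose with it and TOB1 and TOB2 did not pass the test. BTG1 went from 8.41 to 15.5 FPKM with H93 and 12.8 with SAHA, differences of 0.81 (limma adjusted p 3.61e-08) and 0.55 (limma adjusted p 2.11e-06), and BTG3 from 52.3 to 69.2 and 65.8 FPKM. TOB1 measured 18.8, 19.5 and 17.3 FPKM in DMSO, H93 and SAHA (limma adjusted p 0.474 and 0.124 against DMSO), and TOB2 9.02, 9.43 and 8.99 (limma adjusted p 0.19 and 0.923).

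The other sestrins were expressed above SESN1. SESN2 rose from 4.30 to 6.10 FPKM after H93 (0.42, limma adjusted p 1.58e-05). After SAHA SESN2 was at 4.83 FPKM (0.14, limma adjusted p 0.0391), and that call was lost without any 1 of DMSO replicate 2 (0.166), DMSO replicate 3 (0.103), H93 replicate 1 (0.0504) or SAHA replicates 1 (0.0597), 2 (0.067) and 3 (0.104). The SESN2 call was also lost without the FPKM filter (0.0681) and with only the 6 libraries compared (0.0638). SESN3 rose from 3.46 to 5.79 FPKM after H93 (0.61, limma adjusted p 3.58e-07). After SAHA SESN3 was at 3.86 FPKM (0.12, limma adjusted p 0.0528), which passed without SAHA replicate 3 (0.024), with a pseudocount of 0.1 (0.048), with median-ratio rescaling (0.0408) and with the replicate number as a block (0.0401). The subunits that pair with or resemble RRM2B did not pass either. RRM1 measured 45.6, 44.5 and 45.5 FPKM in DMSO, H93 and SAHA, and RRM2 89.7, 91.2 and 92.1, where the SAHA difference passed only with quantile normalization (0.0441).

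**Figure D5:**
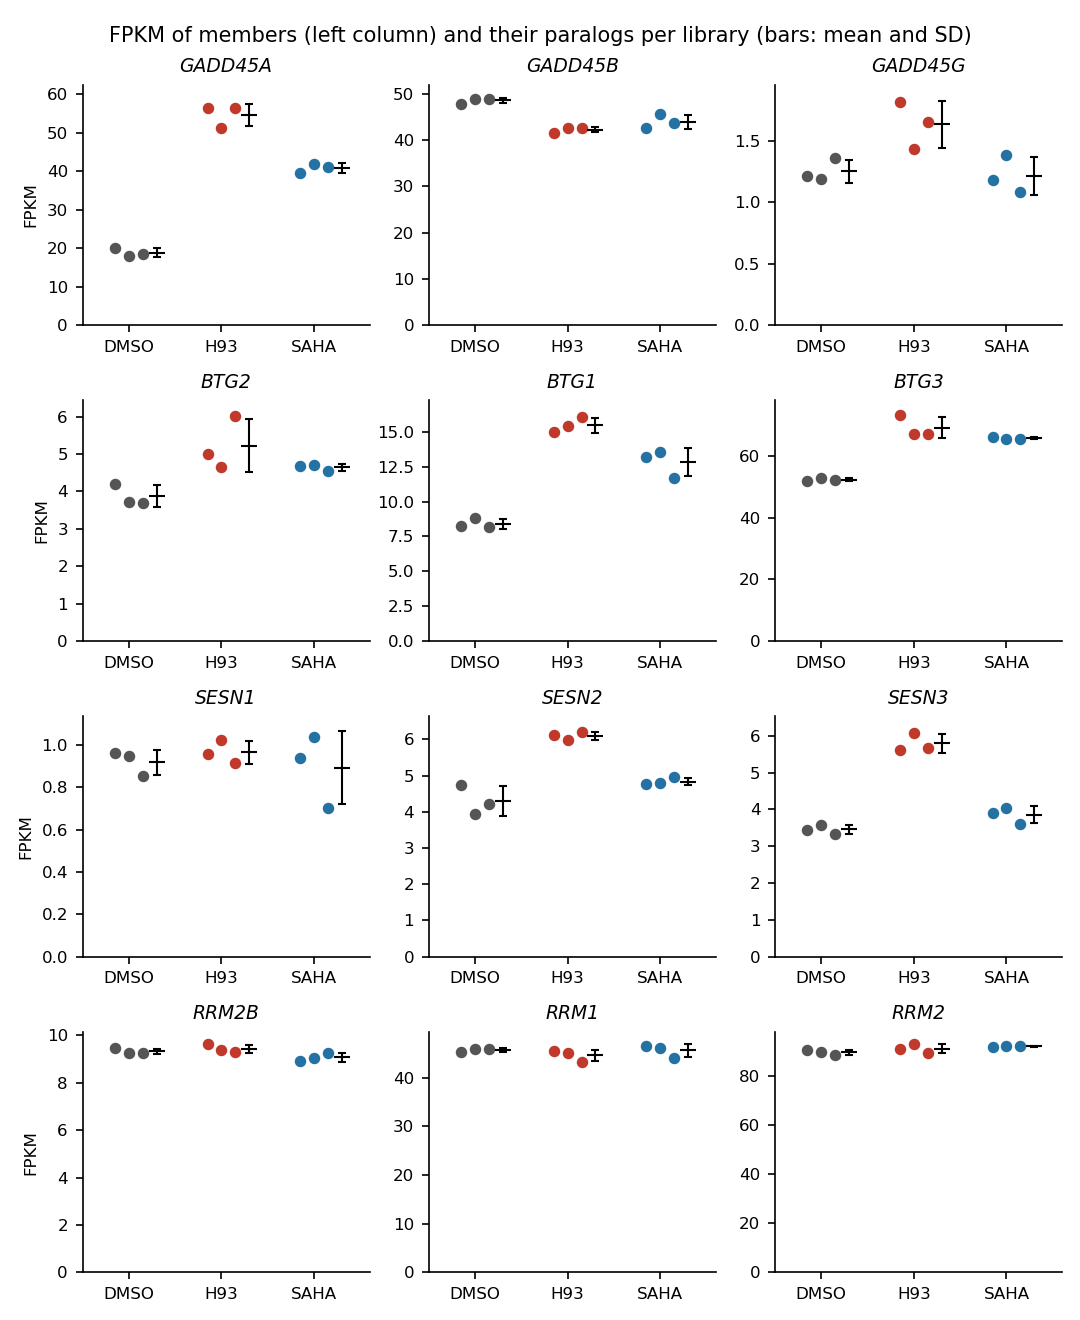
FPKM (vertical axes, each starting at 0) per library of GADD45A, BTG2, SESN1 and RRM2B in the left column and of their relatives beside them, with bars for the mean and SD of 3 libraries. GADD45B moves down where GADD45A moves up, BTG1 and BTG3 move up with BTG2, SESN2 and SESN3 lie above DMSO with H93 while SESN1 overlaps, and RRM1 and RRM2 overlap or nearly so between groups as RRM2B does.

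The genes around FAS and PERP changed in both directions. Of 7 tested genes of FAS signalling 2 were higher and 2 lower after H93 (28.6% each), beside 34.9% and 35% of all tested genes. After SAHA 2 were higher (28.6%) and 1 lower (14.3%), beside 27.4% and 31.4%. The higher count after SAHA was 1 without DMSO replicate 3 or SAHA replicate 2. BID, which links the death receptors to mitochondria, fell from 25.1 to 12.0 FPKM with H93 and 14.4 with SAHA, and the initiator caspase CASP10 rose from 1.68 to 3.04 and 2.57. CFLAR, an inhibitor of caspase activation at the receptor, fell from 6.50 to 5.22 FPKM with H93. With SAHA CFLAR was at 6.21 FPKM (limma adjusted p 0.281). The ligand gene FASLG was not found under this name in the deposited table and was not analysed.

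Of 8 tested desmosome genes 2 were higher (25%) and 5 lower (62.5%) after H93, with 3 lower without H93 replicate 2. Over all tested genes 34.9% were higher and 35% lower after H93. After SAHA 2 were higher (25%) and 3 lower (37.5%), beside 27.4% and 31.4% of all tested genes. The plakophilins moved apart, with PKP3 falling from 22.3 to 9.38 and 12.2 FPKM and PKP2 rising from 3.14 to 5.66 and 4.81. JUP (plakoglobin) rose from 21.9 to 29.01 and 25.5 FPKM, and the cadherin DSC2 fell from 4.82 to 3.71 and 4.03. PERP thus rose alongside PKP2 and JUP while PKP3 and DSC2 fell.

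Transcription factors known to act on GADD45A, BTG2 and other members under stress formed a list of 11 tested genes. After H93 8 were higher (72.7%) and 3 lower (27.3%), with a median of 0.27, beside 34.9% and 35% of all tested genes. After SAHA 5 were higher (45.5%) and 2 lower (18.2%), with a median of 0.05, beside 27.4% and 31.4%. ATF3 rose from 4.63 to 9.41 and 7.96 FPKM, JUN from 26.0 to 47.6 and 41.7, and KLF4 from 4.56 to 8.28 and 6.47. CEBPB fell from 53.3 to 38.2 and 37.5 FPKM.

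Last, the tested genes whose log2(FPKM + 1) followed each member most closely over the 9 libraries were listed, as a description, since all points share the same 3 groups. For GADD45A they were SERINC1 (r 0.9983) and FMNL3 (0.9978), for PERP NEDD4L (0.9996) and MMP1 (0.9995), and for ZMAT3 CRY1 (0.9982) and TMTC3 (0.9978). Of 11524 other genes 458 had an r over 0.98 with GADD45A, 498 with PERP and 270 with ZMAT3, so these profiles are common in the table. For BTG2 the closest were LUZP1 (0.9735) and TIMP2 (0.9649), for MDM2 PRPF3 (0.9421) and TIMM17A (0.9395), and for RRM2B ZNF319 (0.9246) and ATPAF1 (0.9234). For FAS they were TSSK6 (0.9373) and TNFRSF11A (0.9259), for SESN1 THAP6 (0.9192) and CLDN15 (0.9092), and for GDF15 THAP8 (0.9798) and CSK (0.9195). None of these last 6 members had a gene with an r over 0.98.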

How the data were processed

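RNA of 9 DU145 libraries was sequenced, 3 per group, and the authors deposited 1 table of FPKM values per gene and library. Per the submitters' processing notes the tools and build include Trimmomatic 0.36, HISAT2, Cufflinks and GRCh38.p13, and no source used here states their settings. FPKM keeps no absolute depth, so no counting interval could be given and no count test was run. Groups were taken from the labels. Genes at 1 FPKM or more in at least 3 libraries (11525 of 16772) were tested on log2(FPKM + 1) with limma 3.58.1 in R 4.3.3, with group means over all 9 libraries, an intensity trend, 6 residual and 6.05 prior degrees of freedom, and Benjamini-Hochberg adjustment over all tested genes. The script was checked on simulated data in which few genes changed, and only in H93. That check does not cover data in which most genes are called. Differences on this scale understate those of low genes. The labels do not say that replicates are separate cultures, so the p-values cover only differences among these libraries, and these can be technical. An exact permutation test of 3 against 3 cannot go below 0.1 and was not used.

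The members and gene lists were chosen with earlier results of these data known. The text names every member, the 4 genes of each list with the largest called difference, the members' relatives, CDKN1A, TP63, TP73 and MDM4, and the 2 genes that follow each member most closely. PIDD1, NINJ1 and BAX were added as lower genes of the other p53 targets. Some genes of these lists are not reported here. Gene positions are those of GENCODE release 29 on GRCh38, and start windows those of RefSeq on GRCh38.p14. The alternatives were other pseudocounts, filters, scalings, a robust fit, the 6 libraries of a comparison alone, a replicate block and leaving out each library.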

Additional observations from a re-analysis of the deposited data

How the results depend on the processing

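GADD45A, PERP and ZMAT3 kept their direction and call against DMSO under every alternative that tested them, and BTG2 did after H93. Over the member genes 383 of 390 gene values kept direction and side of the threshold, and over the other named genes 1584 of 1632 did. With a mean of at least 5 FPKM fewer genes are tested, ZMAT3, BTG2 and FAS not among them. The count of higher members was then 2 after either agent, that of other p53 targets after SAHA 8, and that of FAS signalling after H93 and of desmosome genes after either agent 1. Without the filter 1 member (GDF15) was lower after H93 and 1 gene of FAS signalling higher after SAHA. Leaving out 1 library gave 9 to 12 higher and 5 to 8 lower genes among the other p53 targets after SAHA. It also gave 1 to 3 higher genes of FAS signalling after SAHA and 3 to 5 lower desmosome genes after H93. The cause was not tested. Values near 0 that changed sign were MDM2 between the agents (0.00 with a fixed sum per library, -0.05 to 0.03 without 1 library), CEBPB between the agents (-0.01 to 0.06), GADD45G after SAHA (-0.08 to 0.02) and RRM1 after SAHA (0.01 with median-ratio rescaling, 0.00 with quantile normalization, -0.02 to 0.02 without 1 library).

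Replicate numbers recur across groups, but deviations of same-numbered libraries correlated between -0.0975 and 0.0355, so the numbers were not used as pairs. With the replicate block the counts of higher members stayed at 4, 4 and 3, and 3980 genes were higher after H93 beside 4017 without it. Rescaling moved the median of all genes by at most 0.0171 on the log2 scale. Depth is unknown, which limits FAS, SESN1 and GDF15 most.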
